A study of Solanum lycopersicum with 9 samples.

Results

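The proteasome-annotated sequences of tomato leaf were described over 3 doses of p-hydroxybenzoic acid (PHBA). A sequence was a member if its Pfam, InterPro or KEGG annotation named the proteasome or held the proteasome subunit domain PF00227, and if it reached 0.5 FPKM in at least 3 of the 9 libraries. FPKM are fragment numbers corrected for sequence length and for library size, so levels can be set side by side between sequences. Of 44203 sequences tested, 58 were members, and all 58 that matched by words passed the filter. Each was at 0.5 FPKM or more in all 9 libraries, with 0.63 FPKM as the lowest single value, and 38 had a mean of at least 5 FPKM.

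The proteasome is the large protease that degrades proteins marked with ubiquitin in the cytosol and nucleus. Its core particle is a stack of rings: α subunits form the outer rings that gate the entrance, and β subunits form the inner rings, where β1, β2 and β5 carry the proteolytic sites. The regulatory particle sits on the core. Its ATPase subunits (Rpt) unfold substrates and push them into the core, and its non-ATPase subunits (Rpn) bind and deubiquitinate them. In plants the proteasome is known for turning over hormone-signalling regulators and misfolded proteins under stress.

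The members fell into 3 classes by their annotation. The core class had 17 sequences with PF00227, 10 of the α and 7 of the β type, and these covered all 7 α types and all 7 β types. The regulatory class also had 17 sequences, 6 ATPases and 11 Rpn-type sequences. The other 24 members were 3 assembly chaperones, 1 Blm10/PA200-type activator, 1 Ecm29-type and 1 PI31-type protein, and 18 sequences that need not be proteasome subunits. The last were matched through the name of the PCI domain, a scaffold module that the proteasome lid shares with the COP9 signalosome and the translation initiation factor eIF3. They comprised 6 eIF3 subunits, 2 sequences whose family name covers a COP9, a proteasome and an eIF3 subunit, and 10 with the PCI domain alone. The label of proteasome subunits therefore held without this reservation for 32 of the 34 core and regulatory sequences. The remaining 2, of the Rpn7/CSN1 family, have a name shared with a COP9 subunit. A gene may be present as several assembled pieces or close copies that divide its reads, so the number of sequences need not be the number of genes.

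The leaves came from about month-old plants of the cultivar Diana. Plants received 0 (untreated control), 15 or 30 mM PHBA, a phenolic acid that plants release and that can inhibit neighbouring plants, and leaves were taken 2 days later. Each dose had 3 libraries. The labels state that RNA of equal treatment was pooled in equal parts, and none states that libraries of equal dose were made from different plants, so the p-values rest on differences among libraries that may be technical alone.

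Summed FPKM was 349076 to 383347 per library and relative depth 0.883 to 1.21. At 0 mM, 39.4 to 45% of a library's FPKM belonged to the 4 most abundant sequences, which have no annotation. That share was 26.9 to 44.6% in the 15 mM libraries and 33.5 to 42.4% in those of 30 mM. The typical annotated sequence was itself shifted: the median log2 fold change of the 13634 annotated sequences tested was 0.19 at 15 mM and 0.30 at 30 mM against the control. Member values below are given next to that shift. Changes were computed on log2(FPKM + 1), where those of low sequences come out too small, and a sequence was called at a limma p-value under 0.05 after Benjamini-Hochberg adjustment over all sequences tested. Chlorophyll a-b binding sequences, the antenna proteins that define green leaf tissue, were present in every library, with sums of 4897 to 7559 FPKM in control, 4162 to 5679 FPKM in 15 mM and 1821 to 2906 FPKM in 30 mM libraries. The 1 RuBisCO small subunit sequence was at 50.9 to 96.4 FPKM at 30 mM and 89.7 to 141 FPKM in the controls (adjusted p = 0.397).

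At 30 mM the core particle's transcripts were higher than in the control. Of 17 core sequences 11 rose and none fell, 5 of the 10 α and 6 of the 7 β sequences. The regulatory particle moved the same way, with 13 of 17 sequences called higher and none lower. Over all 58 members 30 rose and none fell, against 10% called higher and 1.75% called lower among all sequences tested, and 21.1% and 2.95% among annotated ones. The members' fold changes had a median of 0.78 in the core and 0.73 in the regulatory class. In a leaf sample, a change in the number of cells of a type and a change in RNA per cell cannot be told apart. The 3 30 mM libraries lay above all 3 controls in 17 of 17 core and 17 of 17 regulatory sequences, where 25.9% of all and 47.3% of annotated sequences did so. The median log2 fold change with 1 library removed was 0.62 to 0.87 in the core and 0.59 to 0.82 in the regulatory class. In the core it was 0.76, 0.77 and 0.79 when control 1, 2 or 3 was dropped. The numbers of calls, however, changed with the library removed. Dropping 15 mM replicate 2 or 3 raised the core calls to 15. The 15 mM values do not enter this fold change, but their spread enters the shared fit of all 9 libraries. The cause of these shifts in calls was not tested. The core count was 0, 2 and 2 without control replicate 1, 2 or 3, 2 without 30 mM replicate 1 and 6 without 15 mM replicate 1. The regulatory count was 2, 3 and 5 without the same controls, 3 without 30 mM replicate 1, 6 without 30 mM replicate 3 and 8 without 15 mM replicate 1. The share of annotated sequences called higher was itself 9.54, 10.3 and 13.2% without control replicate 1, 2 or 3, 11.4% without 30 mM replicate 1, 16.9% without 30 mM replicate 3 and 15.7% without 15 mM replicate 1.

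Among the β subunits, the β7 sequence T15_3_TRINITY_DN3652_c0_g1, of a subunit that locks the inner rings together, was at 7.61, 8 and 8.96 FPKM in the controls, 11.7, 7.82 and 13.6 FPKM at 15 mM and 22.1, 14.2 and 15.9 FPKM at 30 mM. All 30 mM libraries were above every library of the other doses, and 15 mM replicate 2 lay among the controls. It rose at 30 mM against the control by a log2 fold change of 0.98 (SE 0.21, adjusted p = 0.0206). The structural subunit β4, T30_2_TRINITY_DN4717_c0_g1, was at 3.95, 4.74 and 4.95 FPKM in the controls, 6.16, 4.57 and 7.56 FPKM at 15 mM and 13.5, 7.97 and 8.97 FPKM at 30 mM. Here too no 30 mM library overlapped another dose. Its log2 fold change was also 0.98 (SE 0.22, adjusted p = 0.0212).

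The most abundant core sequence, T15_2_TRINITY_DN13_c0_g3, encodes β1, the subunit with the caspase-like site. It was at 23.1, 23.2 and 22.3 FPKM in the controls, 26.4, 23.8 and 32.4 FPKM at 15 mM and 39.5, 34.8 and 30.1 FPKM at 30 mM. All treated libraries were above the controls, and the highest 15 mM library exceeded the lowest 30 mM library. The rise at 30 mM was the smallest of the 17 core sequences on the log2 scale, 0.58 (SE 0.15, adjusted p = 0.0346). β2, the trypsin-like subunit, and β5, the chymotrypsin-like one, were named for their role after their values had been seen. The β2 sequence averaged 8.94 ± 1.87 FPKM at 30 mM and 4.76 ± 0.159 FPKM in the controls (SD, n = 3 each) and rose by 0.77 (adjusted p = 0.0209). The β5 sequence was at 14.9, 9.94 and 9.30 FPKM at 30 mM and 5.68, 5.24 and 6.84 FPKM in the controls, a log2 difference of 0.82 with a 95% interval of 0.29 to 1.35 that missed the threshold (adjusted p = 0.0554). The other called β sequences were β3 and β6, with log2 fold changes of 0.80 and 0.79.

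Among the α subunits, α6 (TCK_1_TRINITY_DN7560_c0_g1) was the most abundant and had the highest log2 fold change of all 58 members. It was at 11.4, 11.9 and 13.6 FPKM in the controls, 14.9, 13.5 and 21.4 FPKM at 15 mM and 33.9, 22.9 and 24 FPKM at 30 mM. Every 30 mM library exceeded every other library. The rise against the control was 1.06 (SE 0.20, adjusted p = 0.0114). The α7 sequence TCK_2_TRINITY_DN13824_c0_g1 was at 6.05, 6.52 and 6.96 FPKM in the controls, 10.1, 7.78 and 13.9 FPKM at 15 mM and 17.9, 11.3 and 12.3 FPKM at 30 mM. The highest 15 mM library was above 2 of the 30 mM libraries, and no treated library was as low as a control. It rose by 0.96 at 30 mM (SE 0.22, adjusted p = 0.0244). The main α3 sequence, T30_1_TRINITY_DN358_c0_g2, of the subunit whose tail closes the gate, averaged 17.2 ± 3.42 FPKM at 30 mM and 9.64 ± 0.472 FPKM in the controls (SD, n = 3 each), with a log2 fold change of 0.76 (adjusted p = 0.0326). The α4 sequence also rose, by 0.72, with an adjusted p = 0.0499 at the edge of the threshold. The less abundant of 2 α2 sequences, T30_1_TRINITY_DN4507_c0_g1, was at 5.30, 1.91 and 3.12 FPKM at 30 mM and 1.02, 1.21 and 0.90 FPKM in the controls. It rose by 1.05 on the log2 scale (adjusted p = 0.0411) and had the highest ratio of mean FPKM in the core class, 3.30. Besides β5, 5 core sequences did not pass, namely α1, the other α2, the less abundant α3 and both α5 sequences, with adjusted p-values of 0.053 to 0.0943.

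**Figure D1:**
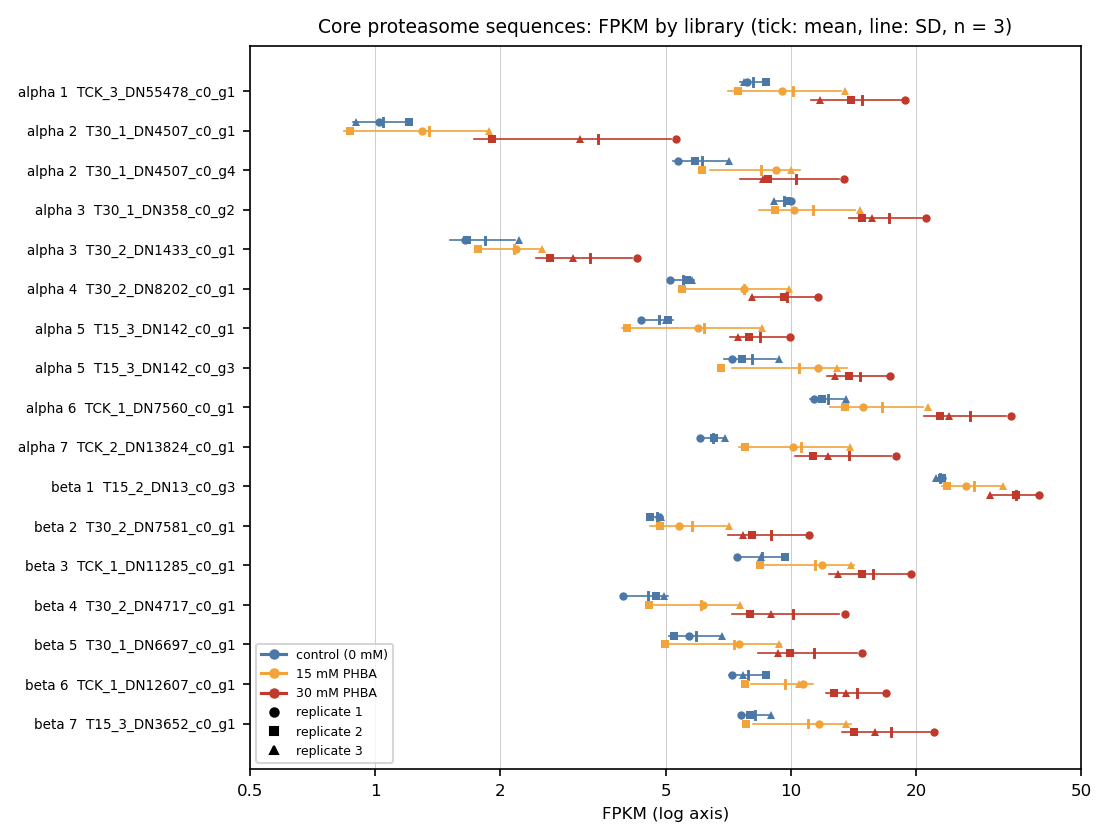
FPKM (log axis) of the 17 core sequences, ordered by subunit, in the 3 libraries of each dose; symbols mark the replicate, ticks the mean and lines the SD (n = 3). The 30 mM libraries lie to the right of all controls in each row, and 15 mM replicate 2 lies near the controls.

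Of the 6 regulatory ATPases 5 rose at 30 mM. The most abundant, TCK_1_TRINITY_DN11327_c0_g1, was at 20.9, 21.9 and 26.4 FPKM in the controls, 27.8, 26.7 and 34.8 FPKM at 15 mM and 50.4, 36.4 and 37.1 FPKM at 30 mM. The groups did not overlap between any of the doses. Its log2 fold change at 30 mM against the control was 0.81 (SE 0.17, adjusted p = 0.0175). The second, TCK_1_TRINITY_DN573_c0_g1, averaged 29.4 ± 5.62 FPKM at 30 mM and 17.1 ± 0.949 FPKM in the controls (SD, n = 3 each; log2 fold change 0.73, adjusted p = 0.022). The ATPase T30_2_TRINITY_DN4716_c0_g1 had the largest change of the 6. It was at 31.8, 24.4 and 25.8 FPKM at 30 mM and 12.0, 12.95 and 15.8 FPKM in the controls, a log2 fold change of 0.96 (SE 0.18, adjusted p = 0.0105). The annotation does not tell which Rpt subunit each sequence is. The sixth, T15_2_TRINITY_DN4853_c0_g1, averaged 7.95 ± 2.32 FPKM at 30 mM and 4.76 ± 0.332 FPKM in the controls and did not pass (log2 difference 0.60, adjusted p = 0.0761).

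Of the 11 Rpn-type sequences 8 rose at 30 mM. Rpn5, a structural subunit of the lid, was represented by 2 sequences. The main one, TCK_2_TRINITY_DN5183_c0_g2, was at 10.7, 10.7 and 11.1 FPKM in the controls, 15.1, 11.2 and 17.2 FPKM at 15 mM and 23.5, 18.4 and 17.8 FPKM at 30 mM. All treated libraries were above all controls, and all 30 mM libraries were above all 15 mM libraries. It rose by 0.81 at 30 mM against the control (SE 0.17, adjusted p = 0.0163). The Rpn7/CSN1 sequence T15_3_TRINITY_DN5504_c0_g1, of the lid or of the COP9 signalosome, averaged 21.0 ± 4.41 FPKM at 30 mM and 12.3 ± 0.702 FPKM in the controls (log2 fold change 0.71, adjusted p = 0.0265). TCK_1_TRINITY_DN8658_c0_g1, annotated as the C-terminal domain of a regulatory subunit, was at 14.2, 9.73 and 11.3 FPKM at 30 mM and 5.55, 5.99 and 6.33 FPKM in the controls, and rose by 0.86 (SE 0.20, adjusted p = 0.0254). Rpn13, a ubiquitin receptor, averaged 7.29 ± 0.894 FPKM at 30 mM and 4.02 ± 0.263 FPKM in the controls (log2 fold change 0.72, adjusted p = 0.00859). Rpn6, which clamps the lid to the core, averaged 9.78 ± 3.20 FPKM at 30 mM and 5.05 ± 0.499 FPKM in the controls (log2 fold change 0.80, adjusted p = 0.0437). Rpn13 and Rpn6 were named for their role after their values had been seen. The Rpn8-type sequence, the sequence with the shared N-terminal domain of Rpn1 and Rpn2 and the less abundant of 2 Rpn2 sequences did not pass (adjusted p = 0.102, 0.0646 and 0.0544).

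**Figure D2:**
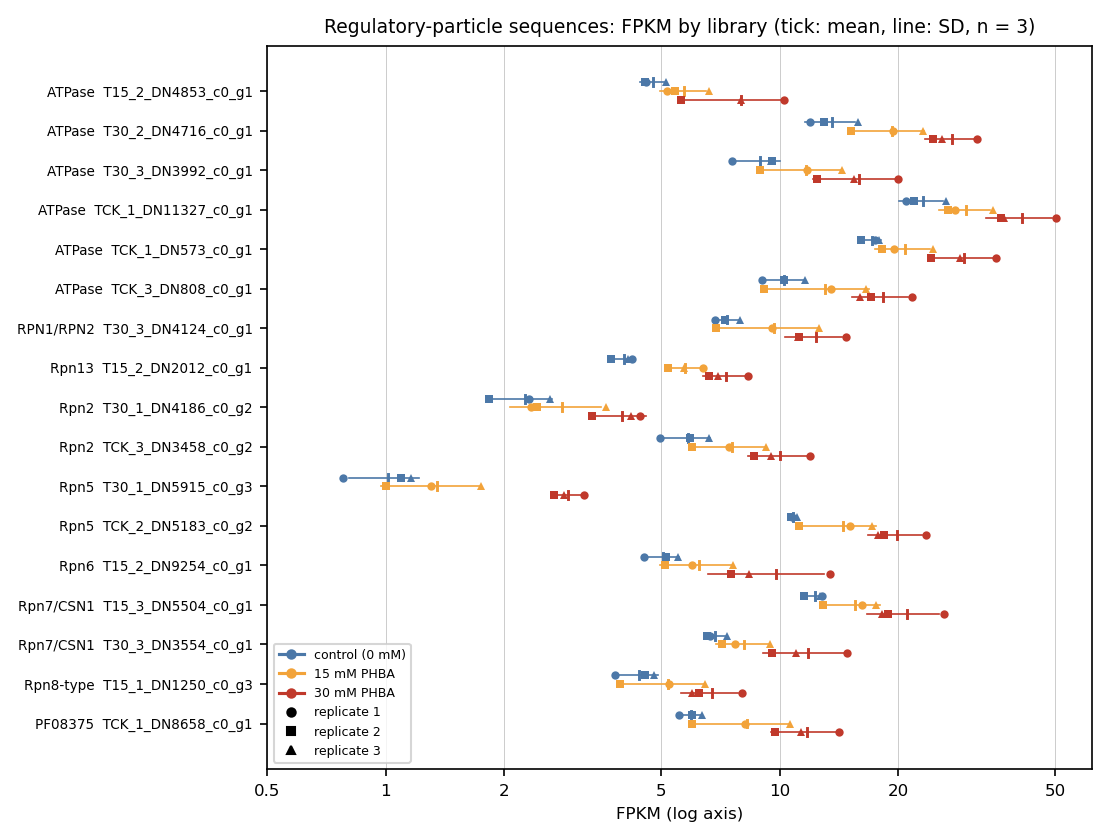
FPKM (log axis) of the 17 regulatory-particle sequences in the 3 libraries of each dose; symbols mark the replicate, ticks the mean and lines the SD (n = 3). No 30 mM library is as low as a control in any row, and the less abundant Rpn5 sequence has 30 mM values apart from both other doses.

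The sizes of the changes at 30 mM were set side by side for the core and regulatory sequences. The ratio of mean FPKM at 30 mM to that of the control was 1.52 to 3.30 in the core class with a median of 1.84, and 1.53 to 2.87 in the regulatory class with a median of 1.78. The interquartile range of the log2 fold changes was 0.24 in the core class and 0.12 in the regulatory class, against 0.56 among all annotated sequences. All 17 core and all 17 regulatory sequences were above the annotated median of 0.30. When only means of at least 5 FPKM were tested, the medians were 0.78 in the core, 0.73 in the regulatory class and 0.45 among annotated sequences. Rescaling lowered the values without turning them. The median was 0.42 in the core and 0.38 in the regulatory class after median-of-ratios rescaling, where annotated sequences had 0.05, and 0.28 and 0.25 after quantile normalization, where annotated sequences had 0.04. With median-of-ratios rescaling 6 core and 5 regulatory sequences rose, where 13.3% of annotated sequences did. With quantile normalization 4 core and 3 regulatory sequences rose, where 11.6% of annotated sequences did. None of the 34 fell, and all were above the annotated median.

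**Figure D3:**
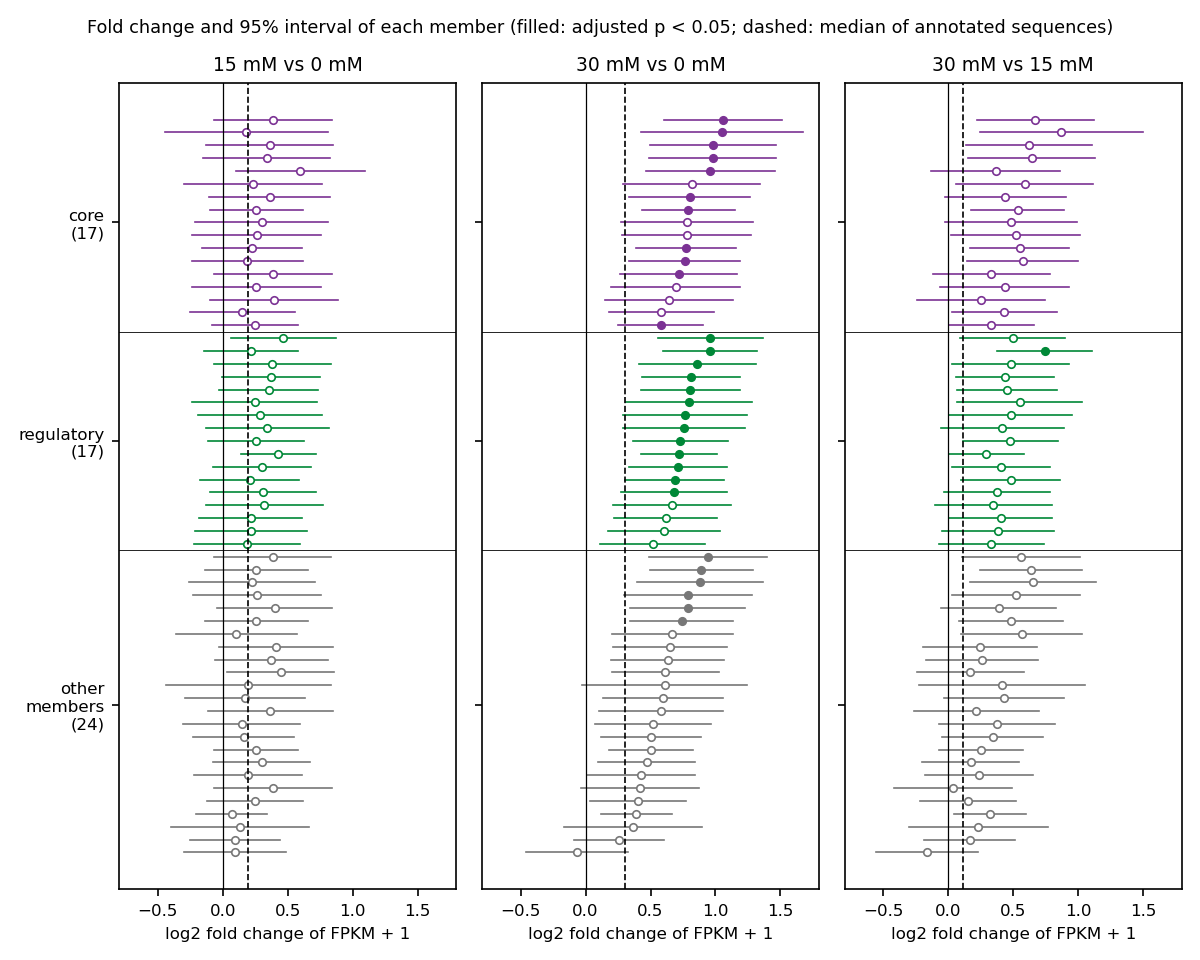
Log2 fold change of FPKM + 1 (points) with its 95% interval (lines) for each member, by class and ordered by the 30 mM change, in the comparisons of 15 mM with 0 mM, 30 mM with 0 mM and 30 mM with 15 mM; filled points have an adjusted p under 0.05. At 30 mM against 0 mM the core and regulatory points lie to the right of the dashed annotated median of 0.30, while at 15 mM against 0 mM no point is filled.

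The balance between subunits was examined on ratios within a library, which multiplying a library by a factor does not change. The summed FPKM of the core sequences was 119.8, 128.2 and 131.8 in the controls, 162.6, 125.2 and 203.8 at 15 mM and 291.3, 210.3 and 205.2 at 30 mM. The regulatory sum was 134.6, 139.5 and 156.4 in the controls, 182.5, 151.2 and 221.7 at 15 mM and 311.9, 222.8 and 238.2 at 30 mM. Both sums ranked the 15 mM libraries alike, while replicates 2 and 3 changed places between them at 30 mM. The ratio of the regulatory to the core sum was 1.13 ± 0.0498 at 0 mM, 1.14 ± 0.062 at 15 mM and 1.1 ± 0.0555 at 30 mM (SD, n = 3 each). The ratio of the α to the β sum was 1.02 ± 0.0323 at 0 mM, 1.07 ± 0.0761 at 15 mM and 1.08 ± 0.0343 at 30 mM. The differences in the regulatory to core ratio were smaller than the spread between libraries. The α to β ratio was 1.120, 1.051 and 1.083 in the 30 mM libraries and 1.002, 0.999 and 1.056 in the controls. These ranges overlapped only at their edges, and the difference was not tested.

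Within the core sum, 13 of 17 sequences held a share at 30 mM that overlapped with that in the controls. The share of α6 was 11.6, 10.9 and 11.7% at 30 mM and 9.48, 9.28 and 10.3% in the controls, without overlap. β4 held 4.26 ± 0.430% at 30 mM and 3.58 ± 0.250% in the controls, and α7 held 5.84 ± 0.403% at 30 mM and 5.14 ± 0.124% in the controls (SD, n = 3 each). In these 3 sequences the share was higher in every 30 mM library. β1 was the single core sequence with a lower share in every 30 mM library, 14.9 ± 1.52% at 30 mM and 18.1 ± 1.19% in the controls. Within the regulatory sum, 12 of 17 shares overlapped. The ATPase T30_2_TRINITY_DN4716_c0_g1, the less abundant Rpn5 sequence and TCK_1_TRINITY_DN8658_c0_g1 had higher shares at 30 mM. The Rpn8-type sequence and the sequence with the shared N-terminal domain of Rpn1 and Rpn2 had lower ones, while the shares of both Rpn2 sequences overlapped. The ATPase held 10.7 ± 0.421% at 30 mM and 9.42 ± 0.619% in the controls, and the Rpn8-type sequence 2.62 ± 0.149% at 30 mM and 3.06 ± 0.216% in the controls. Shares of a sum are tied to each other, and these differences were not tested. With 3 libraries against 3, groups without a difference separate in either direction with a probability of 0.1. No such count over other sequences was made.

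There were 2 sequences for each of 7 subunit names, and the lower was expressed as a percent of the higher in every library. For α2 it was 39.4, 21.7 and 36.4% at 30 mM, against 19.1, 20.5 and 12.7% in the controls, and it was 14.1, 14.2 and 18.7% at 15 mM. For Rpn5 it was 13.6, 14.5 and 15.9% at 30 mM, against 7.27, 10.2 and 10.5% in the controls, and it was 8.60, 8.91 and 10.1% at 15 mM. In both pairs the 30 mM libraries were above all others. The log2 ratio of the pair differed by 0.88 for α2 and 0.67 for Rpn5 between 30 mM and the control. In the eIF3 C pair the 30 mM libraries were above the controls, with a difference of 0.26, but overlapped with those of 15 mM. An exact two-sided permutation test with 3 libraries against 3 cannot go below p = 0.1, which these 3 pairs reached (adjusted p = 0.233 over 7 pairs). The other 4 pairs, of α3, α5, Rpn2 and Rpn7/CSN1, had differences of -0.05 to 0.05 with overlapping libraries. The 2 Rpn7/CSN1 sequences may be 1 lid and 1 COP9 subunit rather than copies.

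**Figure D4:**
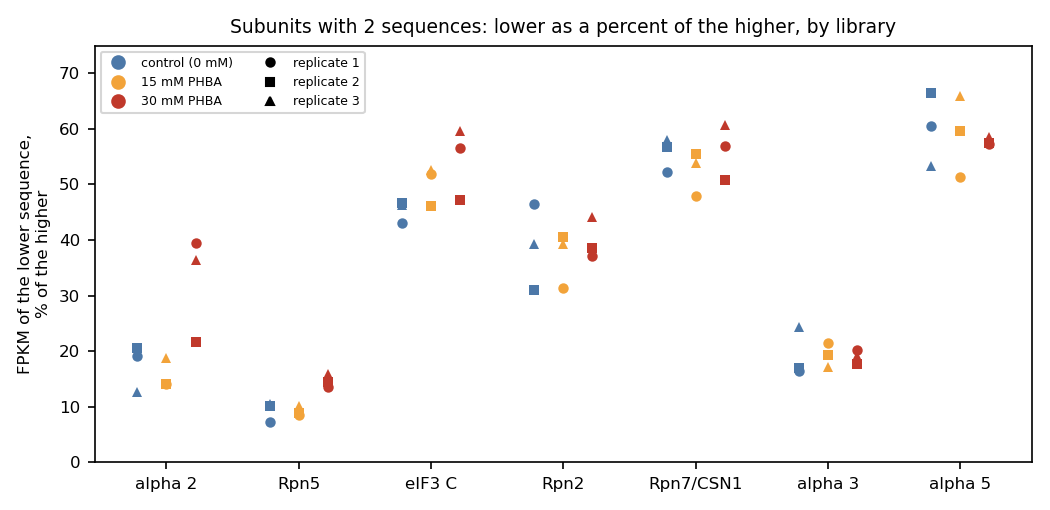
FPKM of the less abundant sequence as a percent of the more abundant one for the 7 subunit names with 2 sequences, by library; colours mark the dose and symbols the replicate. For α2 and Rpn5 the 3 30 mM libraries lie above all other libraries, at 21.7 to 39.4% and 13.6 to 15.9%, while the α3 and α5 doses overlap.

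The comparison of 15 mM with the control addressed the response to the weaker treatment. At 15 mM limma called 0 of 58 members, against 0.0995% called among all and 0.132% among annotated sequences, and 0 under every alternative run. An unadjusted p under 0.05 was reached by 4 members, all higher, as it was in this direction by 8.95% of all and 14.2% of annotated sequences. All 58 had a log2 fold change above 0, as had 70.7% of all and 82.6% of annotated sequences, with medians of 0.26 in the core and 0.30 in the regulatory class, next to 0.19 among annotated sequences. When only means of at least 5 FPKM were tested, these 3 medians were 0.30, 0.31 and 0.25. The count above 0 was 54 with the 4 most abundant sequences removed, 54 without 15 mM replicate 3, 35 with median-of-ratios rescaling and 41 with quantile normalization. Median-of-ratios rescaling gave medians of 0.015 in the core and 0.06 in the regulatory class, and quantile normalization 0.04 and 0.07. The lowest adjusted p in the core was 0.411, for α7, which had a log2 difference of 0.59 with a 95% interval of 0.10 to 1.09. In the regulatory class it was 0.297, for Rpn13, with a difference of 0.43 and an interval of 0.14 to 0.72. Rpn13 was at 6.4, 5.19 and 5.70 FPKM at 15 mM and 4.21, 3.72 and 4.13 FPKM in the controls. Its groups did not overlap, as was the case, in the higher direction, for 16 of 58 members, 14.7% of all sequences tested and 23.8% of annotated ones.

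The 15 mM libraries differed among themselves. Replicate 2 was the lowest of its group in 54 of 58 members and above all controls in 16. Replicate 3 was the highest in 52 and above all controls in 58, and replicate 1 was above all controls in 53. These counts were not made over other sequences, whose annotated median was also lowest in replicate 2 and highest in replicate 3. The core median per library, as a log2 shift from the control mean, was 0.30, -0.01 and 0.63 in replicates 1 to 3 at 15 mM, and 1.07, 0.67 and 0.59 at 30 mM. The corresponding shift of annotated sequences was 0.21, 0.02 and 0.35 at 15 mM and 0.42, 0.30 and 0.19 at 30 mM. The core was thus 0.09 above, 0.03 below and 0.28 above annotated sequences at 15 mM, and 0.65, 0.37 and 0.40 above them at 30 mM. The 4 most abundant sequences held 34.3, 44.6 and 26.9% of the FPKM in the 15 mM libraries and 33.5, 37.0 and 42.4% in the 30 mM libraries. With these 4 removed, the median at 30 mM was 0.63 in the core and 0.20 among annotated sequences. The core median at 15 mM was 0.49 without 15 mM replicate 2 and 0.14 without replicate 3. The 30 mM libraries differed too, and replicate 1 was the highest of its group in 55 of 58 members. That count was not made over other sequences either, and the annotated shift of 0.42 in replicate 1 was also the highest of the 30 mM libraries.

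**Figure D5:**
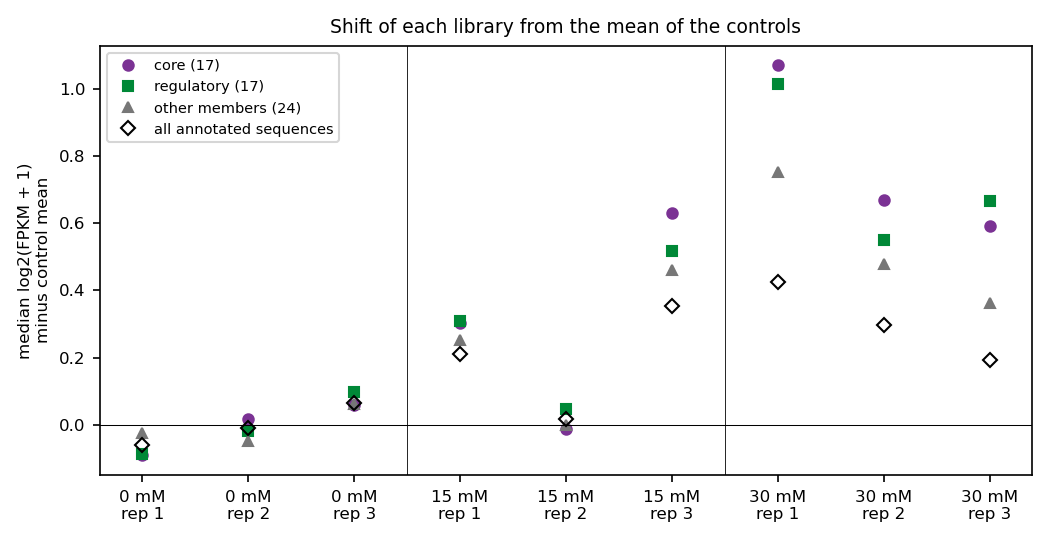
Median shift of each library from the control mean, in log2(FPKM + 1), for the core, regulatory and other members and for all annotated sequences. In all 3 30 mM libraries the core and regulatory points lie above the annotated point, while in 15 mM replicate 2 all points are near 0.

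The 2 PHBA doses were compared with each other to see whether the members differed between them. The 15 mM mean lay between the control and the 30 mM mean in 57 of 58 members. This order was not counted over other sequences. The annotated medians against the control, 0.19 at 15 mM and 0.30 at 30 mM, had the same order. The comparison of 30 mM with 15 mM shares its libraries with both others. Against 15 mM, 1 of 58 members rose at 30 mM, where 2.41% of all and 4.81% of annotated sequences did, and 30 members were higher with an unadjusted p under 0.05 (11.1% of all and 19.6% of annotated sequences). The one was the less abundant Rpn5 sequence, T30_1_TRINITY_DN5915_c0_g3, at 0.78, 1.09 and 1.16 FPKM in the controls, 1.30, 1 and 1.74 FPKM at 15 mM and 3.19, 2.67 and 2.83 FPKM at 30 mM. The 15 mM and control libraries overlapped, and those at 30 mM stood apart. It rose by 0.74 at 30 mM against 15 mM (adjusted p = 0.0449), a call lost in 12 of 18 alternatives, among them each removal of a library except 15 mM replicate 3 (adjusted p up to 0.142). Against the control it rose by 0.96 (SE 0.16, adjusted p = 0.00663), a call kept in all 18 alternatives. The median log2 difference between the doses was 0.52 in the core and 0.44 in the regulatory class, next to 0.11 among annotated sequences. Without 15 mM replicate 2 these medians were 0.34, 0.29 and 0.03, and after quantile normalization 0.26, 0.19 and 0.01. At means of at least 5 FPKM they were 0.52, 0.44 and 0.17. The 30 mM libraries were above all 15 mM libraries in 18 of 58 members, 12.6% of all sequences and 21.3% of annotated ones.

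The assembly chaperones, helper proteins that build the α ring and leave before the proteasome is complete, were at low levels. Chaperone 2, T30_2_TRINITY_DN17631_c0_g1, was at 1.16, 0.97 and 1.03 FPKM in the controls, 1.36, 1.34 and 1.68 FPKM at 15 mM and 3.59, 2.01 and 3 FPKM at 30 mM. The 3 doses did not overlap. It rose at 30 mM against the control by 0.89 (SE 0.17, adjusted p = 0.0128). Chaperone 4, T15_3_TRINITY_DN16181_c0_g1, averaged 3.77 ± 0.867 FPKM at 30 mM and 2.09 ± 0.3 FPKM in the controls (log2 difference 0.61, adjusted p = 0.0628), and chaperone 1 averaged 1.46 ± 0.516 FPKM at 30 mM and 0.9 ± 0.311 FPKM in the controls (adjusted p = 0.382). The Blm10/PA200-type sequence TCK_2_TRINITY_DN1925_c0_g1, an activator that can replace the regulatory particle, was at 2.32, 1.61 and 1.57 FPKM at 30 mM and 0.80, 1.17 and 1.14 FPKM in the controls. The groups did not overlap, and the difference of 0.47 did not pass (95% interval 0.10 to 0.85, adjusted p = 0.106). The Ecm29-type sequence, of a protein that tethers core and regulatory particle in yeast, and the PI31-type sequence, of a core-binding regulator, had differences of 0.50 and 0.63 (adjusted p = 0.0966 and 0.0677).

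Of the 18 members matched through the PCI domain or a shared family name, 5 rose at 30 mM, a share near the 21.1% of annotated sequences called higher. The most abundant, TCK_1_TRINITY_DN16086_c0_g1, whose family name covers COP9, proteasome and eIF3 subunits, was at 31.3, 21.9 and 19.3 FPKM at 30 mM and 12.2, 11.1 and 12.2 FPKM in the controls. It rose by 0.94 (SE 0.20, adjusted p = 0.0182). The eIF3 E sequence T30_3_TRINITY_DN2585_c0_g1, of a translation initiation subunit, averaged 12.4 ± 3.52 FPKM at 30 mM and 6.89 ± 0.591 FPKM in the controls (log2 fold change 0.74, adjusted p = 0.0281). The main eIF3 C sequence, T30_1_TRINITY_DN4633_c0_g1, averaged 7.48 ± 1.43 FPKM at 30 mM and 6.05 ± 0.544 FPKM in the controls, and its difference of 0.26 (adjusted p = 0.343) was below the annotated median and turned to -0.095 after median-of-ratios rescaling. Of the sequences with the PCI domain alone, TCK_3_TRINITY_DN2860_c0_g2 averaged 11.9 ± 2.84 FPKM at 30 mM and 5.88 ± 0.0709 FPKM in the controls and rose by 0.88 (adjusted p = 0.0309). T30_3_TRINITY_DN1525_c0_g1 averaged 13.4 ± 1.02 FPKM at 30 mM and 9.15 ± 1.07 FPKM in the controls (log2 difference 0.50, adjusted p = 0.0546). The one member with a value below 0 at 30 mM was also of this kind, T30_2_TRINITY_DN6278_c0_g2, with 4.73 ± 0.433 FPKM at 30 mM and 5 ± 0.261 FPKM in the controls (adjusted p = 0.858), and it was named after its value had been seen. The 24 members outside the core and regulatory classes had a median log2 fold change of 0.59, and 21 of them lay above all controls at 30 mM (25.9% of all and 47.3% of annotated sequences).

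The steps before the proteasome were read from lists of families in the same fit at 30 mM against the control, without a test over a list. Ubiquitin-domain sequences, the tag and its relatives, had 12 of 30 called higher and none lower with a median log2 fold change of 0.56 (6 higher and 1 lower after quantile normalization). Of the E1-type activating enzymes 4 of 9 rose (median 0.53; 2 with a median of 0.10 after quantile normalization), and of the E2 conjugating enzymes 7 of 35 (median 0.42; 2 higher and 1 lower after quantile normalization). Among deubiquitinating enzymes 6 of 26 ubiquitin-specific proteases rose (median 0.43; 2 higher and 1 lower with a median of 0.07 after quantile normalization), and 0 of 9 OTU-type sequences were called (median 0.25, 1 with an unadjusted p under 0.05 and 0 calls after each of the 3 rescalings). Of families that hold parts of SCF-type ubiquitin ligases, 2 of 9 cullins and 11 of 84 F-box sequences rose and none fell. The cullins were not split by the type of ligase. After quantile normalization 0 cullins rose and 1 fell, and 10 F-box sequences rose and 7 fell. In that fit 1588 of 13634 annotated sequences rose and 1449 fell. None of 4 SKP1 sequences was called, 3 had an unadjusted p under 0.05 and 1 rose once the 4 most abundant sequences had been removed. The F-box and cullin medians of 0.21 and 0.26 turned to -0.07 and -0.08 after quantile normalization. CDC48, the segregase that delivers ubiquitinated proteins to the proteasome, had 2 sequences with a median of 0.67, neither of which passed (lowest adjusted p = 0.0598, both with an unadjusted p under 0.05), and 1 rose once the 4 most abundant sequences had been removed. The autophagy protein ATG8 had 2 sequences with a median of 0.41 and 0 calls, 1 of them with an unadjusted p under 0.05, and 0 calls after the rescalings.

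Folding factors were counted beside them. Of 17 HSP70 sequences, chaperones that bind unfolded proteins, 6 rose (median 0.92; 4 after quantile normalization), and of 24 chaperonin sequences 8 rose with a median of 0.51, while 1 rose and 2 fell after quantile normalization. The 18 COP9 and eIF3 sequences that were no members had 6 higher and 1 lower, and 2 higher and 5 lower after quantile normalization. Of 32 NAC sequences, a family of plant transcription factors of which some act on proteasome genes in Arabidopsis, 20 rose with a median of 0.79, and 14 rose after quantile normalization. These are to be read against 21.1% called higher and a median of 0.30 among annotated sequences. After quantile normalization 1588 of 13634 annotated sequences were called higher and 1449 lower. At 15 mM none of these lists had a sequence called. An unadjusted p under 0.05 was reached by 15 of 32 NAC, 11 of 84 F-box, 8 of 35 E2 and 6 of 30 ubiquitin-domain sequences. It was also reached by 6 of 26 ubiquitin-specific proteases and by 0 to 2 sequences in the others. Among annotated sequences 2064 of 13634 reached it. After quantile normalization, or without the 4 most abundant sequences, 1 NAC sequence rose at 15 mM. The antenna sequences moved the other way at 30 mM, with 19 of 24 called lower and a median of -1.34. Sums of markers of other tissues were below the antenna sums in all groups. At 30 mM the cyclin sums lay within the range of the RuBisCO sequence. Laccases of xylem summed to 30.6 to 39.6 FPKM at 30 mM and 24.6 to 29.4 FPKM in the controls, with 2 of 8 higher. Cyclins of dividing cells summed to 55.2 to 70.6 FPKM at 30 mM and 49.4 to 60.2 FPKM in the controls, with 2 of 12 higher. Pollen-type Ole e 1 sequences summed to 25.4 to 38.3 FPKM at 30 mM and 28.4 to 45.2 FPKM in the controls, with 1 of 6 lower. Terpene synthases of glandular trichomes summed to 5.69 to 8.67 FPKM at 30 mM and 5.38 to 7.17 FPKM in the controls, with 0 of 9 called and 1 with an unadjusted p under 0.05. The part of these tissues in the members' values was not tested.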

How the data were processed

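The authors deposited FPKM values with 2 decimals for 82125 sequences in 9 libraries, and a text annotation of domains and pathways. Names of the Trinity form, with 1 of the libraries, show a de novo assembly, per the file headers and names. The submitters' processing notes name FastQC 0.11.5, Trimmomatic 0.36, RSEM and DESeq without saying what each was used for. How assemblies were merged, mapped to and filtered is not given in the sources used here, and neither gene names nor positions were paired with the sequences. No counting interval can be given, because read counts are not used here. Relative depth was read from the steps between low values.

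A filter of at least 0.5 FPKM in 3 or more libraries kept 44203 sequences. FPKM are not counts, so log2(FPKM + 1) was fitted for the 3 doses over all 9 libraries with limma 3.58.1 (R 4.3.3, with version 1.17.8 of its package data.table), with trended empirical Bayes moderation, 6 residual degrees of freedom, two-sided contrasts and Benjamini-Hochberg adjustment over all sequences kept. Ratios and exact permutation tests used Python 3.11.15 with scipy 1.17.1. Roles were read from the annotation alone. The fit was tested on simulated data.

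The members and lists were chosen with earlier results of these data known. Named were, within each role, the 2 sequences of highest mean FPKM, the 8 members of largest change at 30 mM against the control among those with a mean of at least 5 FPKM, and members called at 30 mM against 15 mM; sequences named beyond this rule are marked, and the pairs of sequences for 1 subunit, the shares within a class and those that just missed the threshold were taken for their role or place. Alternatives were other pseudocounts (0.1 and 5), filters, scalings, array weights, a replicate block, fits of 6 libraries and the removal of each library.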

Additional observations from a re-analysis of the deposited data

How the results depend on the processing

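At 30 mM against the control every core and regulatory sequence tested was above 0 under every alternative run (15 of 17 in each class were tested at means of 5 FPKM or more), but the counts of calls moved. Against 11 core and 13 regulatory calls there were 6 and 5 after median-of-ratios rescaling, 4 and 3 after quantile normalization and 6 and 8 without a filter. Of annotated sequences 13.3, 11.6 and 14.9% were called higher in these fits, and 21.1% in the main fit. The counts were higher, 16 and 15, with array weights and 15 and 14 both with the 4 most abundant sequences removed and at means of 5 FPKM or more. The annotated share called higher was 24.9, 22.3 and 47.1% in these fits. Removal of 1 library gave 0 to 15 core and 2 to 15 regulatory calls. At 30 mM against 15 mM the core count of 0 became 6 with the 4 most abundant sequences left out, 3 when only means of 5 FPKM or more were tested and 2 after median-of-ratios rescaling, where 8.54, 16.8 and 5.9% of annotated sequences were called higher. The regulatory count of 1 became 3 with the 4 left out and 0 with 6 libraries, means of 5 FPKM or more, no filter or a pseudocount of 0.1, and was 0 to 1 with 1 library removed. At 15 mM against the control the count was 0 in both classes throughout. Deviations of same-numbered libraries from their group means had correlations of -0.0128 to 0.0269 over 9 pairs. Libraries of different number had -0.027 to 0.026. These values cannot tell whether a number marks a shared plant, day or batch. With the replicate block 6 core sequences were called at 30 mM against the control, 9 regulatory ones, and 0 regulatory ones at 30 mM against 15 mM. The annotated share called higher was then 15.2% at 30 mM against the control and 3.4% at 30 mM against 15 mM. The cause of these differences was not tested.

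The sign of some named sequences turned with the scaling. At 15 mM against the control, median-of-ratios rescaling gave -0.021 for TCK_1_TRINITY_DN573_c0_g1, -0.076 for T30_1_TRINITY_DN358_c0_g2, -0.030 for T15_2_TRINITY_DN13_c0_g3, -0.16 for T30_1_TRINITY_DN4633_c0_g1, -0.0088 for T30_3_TRINITY_DN1525_c0_g1 and -0.029 for TCK_3_TRINITY_DN2860_c0_g2. Quantile normalization gave -0.050 for T30_1_TRINITY_DN358_c0_g2, -0.16 for T30_1_TRINITY_DN4633_c0_g1 and -0.030 for TCK_3_TRINITY_DN2860_c0_g2, and leaving out the 4 most abundant sequences gave -0.042 for T30_1_TRINITY_DN4633_c0_g1. At 30 mM against the control T30_1_TRINITY_DN4633_c0_g1 was at -0.095 and -0.21 after median-of-ratios rescaling and quantile normalization, and T30_3_TRINITY_DN1525_c0_g1 at -0.0049 after the second. At 30 mM against 15 mM both were below 0 after quantile normalization, T30_1_TRINITY_DN4633_c0_g1 at -0.046 and T30_3_TRINITY_DN1525_c0_g1 at -0.017. None of these values passed the test.

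Of the named calls at 30 mM against the control, those of T30_1_TRINITY_DN358_c0_g2 and T15_2_TRINITY_DN13_c0_g3 were lost in 10 of 19 alternatives (adjusted p up to 0.193 and 0.578), and those of TCK_1_TRINITY_DN7560_c0_g1 and T30_2_TRINITY_DN4716_c0_g1 in 1, without control replicate 1 (adjusted p = 0.0527 and 0.0516). Read depth is unknown, so counting error at low FPKM cannot be given.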
